A study of Homo sapiens and Pan troglodytes with 11 samples.

Results

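NRSN2, SRXN1 and SCRT2 lie together near the end of the short arm of chromosome 20, and 4 single-cell libraries of human and chimpanzee neurons carried probes for them. The 3 genes were taken by name, out of 24 genes measured in the series and 20 measured beside GAPDH in these 4 libraries. Measured as a share of the unique molecular identifiers (UMIs) outside GAPDH, SRXN1 was higher in the human libraries than in the chimpanzee libraries by a log2 ratio of 1.02 ± 0.04 (SE). NRSN2 was higher in the human libraries by 0.28 ± 0.07, which was close to the median of all 20 genes and depended on the scaling. SCRT2 had almost the same share in both species, but its UMIs were spread much more unevenly over chimpanzee cells than over human cells.

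NRSN2 encodes neurensin 2, a membrane protein of small vesicles in neurons. SRXN1 encodes sulfiredoxin, which restores over-oxidised peroxiredoxins and is a well-known target of the transcription factor NRF2 in the oxidative stress response. SCRT2 encodes a zinc finger protein of the Scratch family, relatives of Snail that repress transcription and that in mouse are found in newly formed neurons. No other NRF2 target of a list of 10, no other member of the Snail and Scratch list of 5 and not the other neurensin was among the measured genes, so the 3 genes cannot be set beside their own families here.

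The series asks what human accelerated regions, parts of the genome that stayed nearly the same in other mammals and diverged quickly in humans, do in neurons. Human neurons came from WTC11, an established induced pluripotent stem cell line, and chimpanzee neurons from C3649, a chimpanzee line of the same kind. In each group the cells were labelled as excitatory neurons 2 weeks old, and in each group they carried CRISPR interference, in which an inactive Cas9 fused to a repressor is led to a chosen site by a guide RNA, with a pool of 28 guide barcodes. Transcripts and guide barcodes were read by HyPR-seq, which hybridises probe pairs to fixed cells and counts them in droplets. The human libraries are called human 4 and human 5 and the chimpanzee libraries chimpanzee 3 and chimpanzee 4, all of screen replicate 2. Each species is 1 line, the labels do not say that the 2 libraries of a species are separate cultures, and no guide barcode is labelled as a control. P-values therefore measure the spread between these libraries only. None of 18 marker genes of neurons, progenitors, glia or pluripotent cells was measured in them, so the labelled cell type could not be checked.

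On GRCh38, with the GENCODE annotation, NRSN2 runs from 346782 to 359660 on the forward strand of chromosome 20. SRXN1 runs from 646615 to 653370 and SCRT2 from 661596 to 676179, both on the reverse strand, with 8226 bases between them. NRSN2 ends 286955 bases before SRXN1 begins. At its 5′ end NRSN2 overlaps the antisense gene NRSN2-AS1 over 1443 bases. A further protein-coding gene, AL121758.1, reads through from SCRT2 into SRXN1 on the reverse strand, from 675800 back to 646626. Its exon 1 lies within exon 1 of SCRT2 (332 bases), and its exon 3 lies within exon 2 of SRXN1 (2292 bases). The exon junctions below, from GRCh38 in transcript direction, 5′ to 3′, with 30 bases on each side, show where these transcripts are alike. Capitals mark the side that the read-through transcript shares with SCRT2 or with SRXN1.
SCRT2 exons 1 and 2: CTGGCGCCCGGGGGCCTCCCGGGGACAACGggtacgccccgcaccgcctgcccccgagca
AL121758.1 exons 1 and 2: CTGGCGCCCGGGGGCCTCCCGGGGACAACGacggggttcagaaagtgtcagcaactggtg
AL121758.1 exons 2 and 3: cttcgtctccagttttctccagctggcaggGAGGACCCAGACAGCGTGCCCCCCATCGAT
SRXN1 exons 1 and 2: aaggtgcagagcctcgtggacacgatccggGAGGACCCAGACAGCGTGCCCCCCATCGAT
A probe in the capital stretches could not tell the read-through transcript from the gene that shares them. Where the probes lie was not analysed here, and neither was how well they match chimpanzee transcripts, so a difference between species in probe match cannot be told apart from one in RNA.

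The 4 tables held 18699 cells and 4399970 gene UMIs, of which GAPDH took 67.9% in human 4, 45.2% in human 5, 52.6% in chimpanzee 3 and 50.4% in chimpanzee 4. Human 4 stood apart: in 1712 of its 3825 cells GAPDH made up more than 80% of gene UMIs, against 9 cells in human 5, 2 in chimpanzee 3 and 7 in chimpanzee 4. Those cells were left out, which left 2113 and 4612 human cells and 5823 and 4421 chimpanzee cells. The median kept cell had 101 and 86 UMIs outside GAPDH in human 4 and 5, and 111 and 98 in chimpanzee 3 and 4. Many cell barcodes were found in more than 1 table: human 4 and human 5 shared 1060, human 4 and chimpanzee 3 shared 1003, human 5 and chimpanzee 3 shared 995, and 880 were in all of these 3. Chimpanzee 4 shared 1436 with another chimpanzee library of the series, chimpanzee 5, and 234 with human 6. Of the kept cells, 298 and 1192 in human 4 and 5 and 1137 and 1441 in chimpanzee 3 and 4 had such a barcode. In these cells the leading guide barcode held a median of 14.0% and 8.59% of guide UMIs in human 4 and 5 and 9.52% and 35.5% in chimpanzee 3 and 4, against 60.9% and 43.9% in the other kept cells of human 4 and 5 and 45.3% and 51.1% in those of chimpanzee 3 and 4. NRSN2 was lower in them than in the other kept cells, at 4.87% and 4.94% in human 4 and 5 and 3.87% and 4.61% in chimpanzee 3 and 4, against 5.66% and 5.49% in the other cells of human 4 and 5 and 4.33% and 4.90% in those of chimpanzee 3 and 4. Values over barcodes found in no other table are given beside the main results.

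SRXN1 made up 1.24% and 1.29% of the UMIs outside GAPDH in human 4 and human 5, and 0.619% and 0.633% in chimpanzee 3 and chimpanzee 4. The means were 1.27% ± 0.0352 in the human libraries and 0.626% ± 0.00989 in the chimpanzee libraries (SD, n = 2 each). The species did not overlap, and the gap between them was many times the gap within either. The 95% exact binomial intervals, which cover counting error only, ran from 1.20% to 1.29% in human 4 and from 1.26% to 1.32% in human 5, and from 0.602% to 0.636% in chimpanzee 3 and from 0.611% to 0.655% in chimpanzee 4. The log2 ratio of human over chimpanzee was 1.02 ± 0.04 (SE, adjusted p = 0.000199, edgeR's quasi-likelihood test with Benjamini-Hochberg adjustment over 20 genes). Over cell barcodes found in no other table it was 1.03.

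That call has to be read against the background, since most genes differed. Of the 20 genes tested, 17 passed an adjusted p of 0.05 (85.0%), with 12 higher in the human libraries (60%) and 5 lower (25.0%). In all 20 genes (100%) the human and chimpanzee libraries did not overlap. DAZL, a germ cell gene used here as a low reference that neurons should lack, was also higher in the human libraries, with 0.508% and 0.462% in human 4 and 5 and 0.227% and 0.269% in chimpanzee 3 and 4. Its log2 ratio of 0.97 ± 0.12 (adjusted p = 0.00266, edgeR) was near that of SRXN1. UMIs of SRXN1 per UMI of DAZL were 2.44 and 2.80 in human 4 and 5, and 2.73 and 2.35 in chimpanzee 3 and 4, so relative to DAZL the species overlapped. Its part in the SRXN1 result was not tested.

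NRSN2 made up 5.61% and 5.39% in human 4 and human 5, and 4.26% and 4.78% in chimpanzee 3 and chimpanzee 4. The means were 5.50% ± 0.156 in the human and 4.52% ± 0.364 in the chimpanzee libraries (SD, n = 2 each). The species did not overlap, but chimpanzee 3 and 4 differed from each other by almost as much as chimpanzee 4 from human 5. The log2 ratio was 0.28 ± 0.07 (adjusted p = 0.0231, edgeR), beside a median of 0.27 over the 20 genes. Over barcodes found in no other table it was 0.27. It was 0.54 with GAPDH UMIs as the library size and 0.15 in cells with 1 assigned guide barcode, and both passed the test. Without chimpanzee 3 it was 0.20, with an adjusted p of 0.0576, and over all alternatives its adjusted p ran from 0.00178 to 0.714.

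SCRT2 made up 1.25% and 1.23% in human 4 and human 5, and 1.20% and 1.15% in chimpanzee 3 and chimpanzee 4. The means were 1.24% ± 0.0120 in the human and 1.18% ± 0.0310 in the chimpanzee libraries (SD, n = 2 each). The log2 ratio of 0.08 ± 0.04 did not pass the test (adjusted p = 0.144, edgeR), and over barcodes found in no other table it was 0.10. It was 0.34 with GAPDH UMIs as the library size and -0.00153 in cells with 1 assigned guide barcode, neither past the test. Adjusted p ran from 0.00904 to 0.981 over all alternatives. A p that misses the threshold does not show that the levels are equal.

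**Figure D1:**
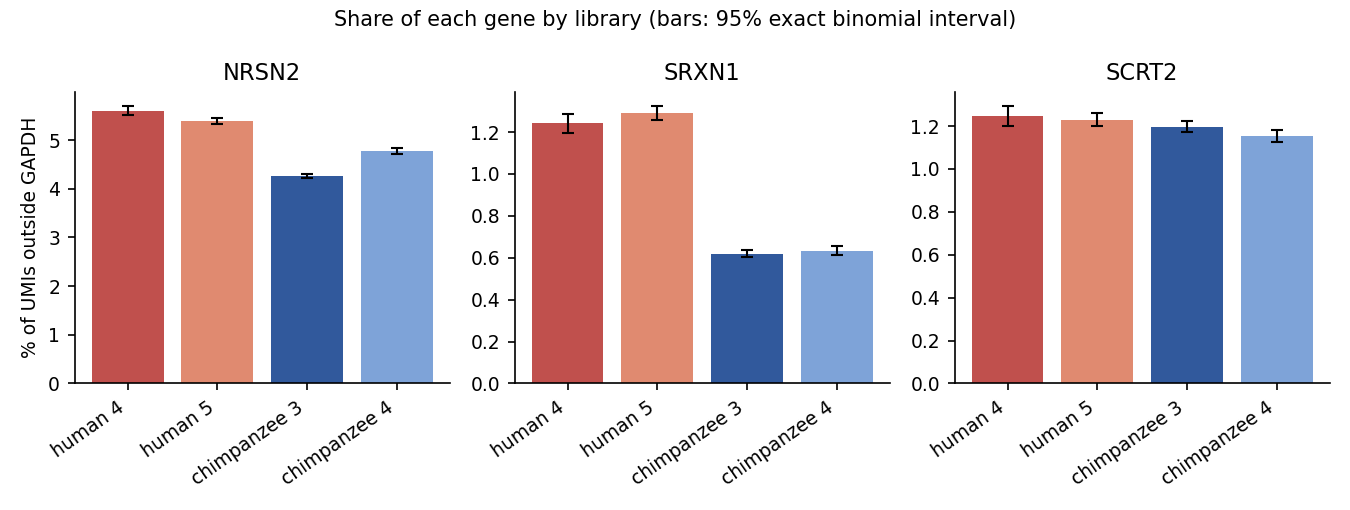
Share of UMIs outside GAPDH (y axis, percent) taken by each gene in the 4 libraries (x axis), with 95% exact binomial intervals for counting error. SRXN1 is near 1.24% and 1.29% in the human libraries and near 0.619% and 0.633% in the chimpanzee libraries, while the SCRT2 bars are almost level.

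These shares move with the denominator. With TMM factors, which assume that most genes do not differ, the median of the 20 genes moved to -0.08, and the called genes were split into 7 higher (35%) and 8 lower (40%) in the human libraries, 75% in all. NRSN2 then stood at -0.07 (adjusted p = 0.376), SRXN1 at 0.67 (adjusted p = 9.06e-05) and SCRT2 at -0.28 (adjusted p = 0.00904), all by edgeR. DESeq2 with its own size factors gave 0.03 for NRSN2, 0.77 for SRXN1 and -0.18 for SCRT2. So only the direction of SRXN1 held under all 15 alternative fits, from 0.67 to 1.28. Relative to the median of the 20 genes, NRSN2 stayed close to the middle under each of these scalings, and SCRT2 below it.

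Ratios of the 3 genes within a library do not depend on the denominator. There were 0.996 and 1.05 SRXN1 UMIs per SCRT2 UMI in human 4 and 5, and 0.517 and 0.549 in chimpanzee 3 and 4. For NRSN2 there were 4.50 and 4.38 UMIs per SCRT2 UMI in human 4 and 5, and 3.56 and 4.14 in chimpanzee 3 and 4. The ratio of SRXN1 to its neighbour SCRT2 thus separated the species by far more than the libraries of a species differed. The ratio of NRSN2 to SCRT2 separated them by less than the chimpanzee libraries differed from each other. Such ratios show unequal change, not which gene changed.

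**Figure D2:**
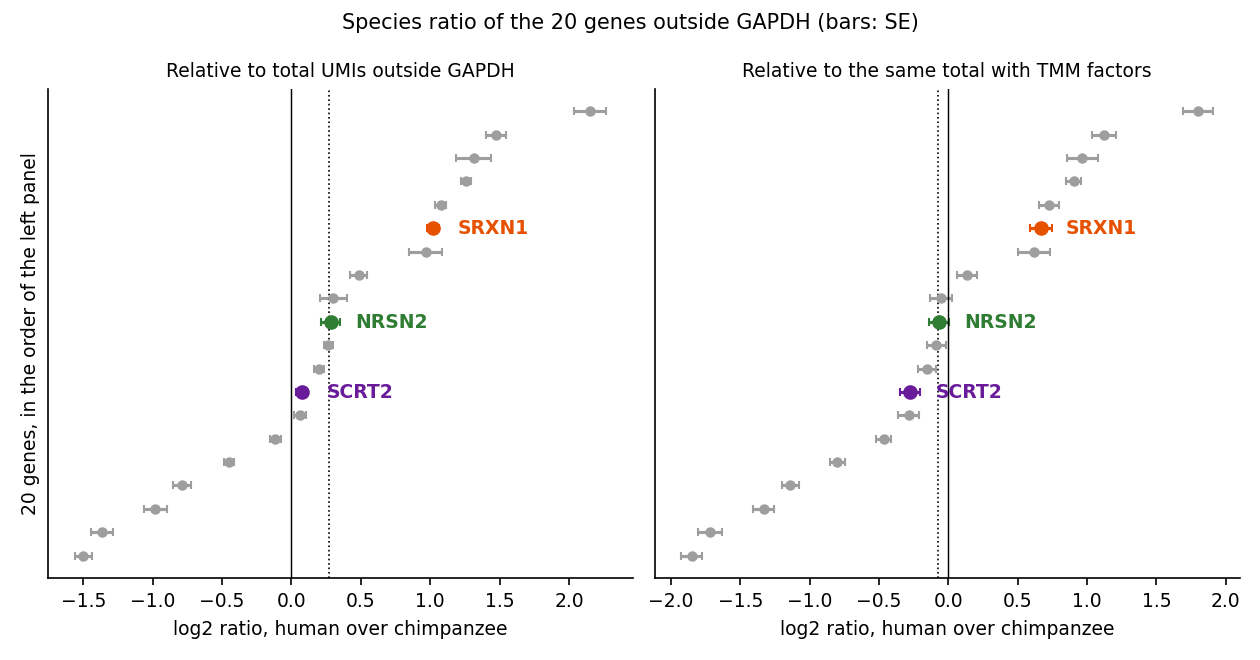
Log2 ratio of human over chimpanzee (x axis) with its SE for the 20 genes outside GAPDH (1 point each, grey for genes other than the 3), relative to the total UMIs outside GAPDH on the left and with TMM factors on the right. The dotted lines mark the median gene, at 0.27 and -0.08: SRXN1 lies above it in both panels, NRSN2 on it and SCRT2 below it.

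To compare how many cells held a gene, cells with at least 30 UMIs outside GAPDH were thinned to 30, as an exact expectation. SRXN1 was then found in 30.0% and 31.2% of cells in human 4 and 5, and in 16.2% and 16.4% in chimpanzee 3 and 4. NRSN2 was found in 78.5% and 78.4% in human 4 and 5, and in 70.9% and 74.4% in chimpanzee 3 and 4. SCRT2 was found in 31.0% and 31.3% in human 4 and 5, and in 28.1% and 26.4% in chimpanzee 3 and 4. DAZL, the low reference, was found in 14.8% and 13.2% in human 4 and 5, and in 6.54% and 7.75% in chimpanzee 3 and 4, so each of the 3 genes lay above it in every library. Unthinned, SRXN1 was found in 67.4% and 64.3% in human 4 and 5 and in 48.5% and 44.6% in chimpanzee 3 and 4, at median depths of 115 and 88 UMIs in human cells and 111 and 98 in chimpanzee cells. All 3 genes were found together in 49.9% and 43.3% of human 4 and 5 cells, and in 34.3% and 28.2% of chimpanzee 3 and 4 cells, without thinning. Over barcodes found in no other table, the thinned shares differed by 5.58 percentage points for NRSN2, 14.1 for SRXN1 and 4.25 for SCRT2 (human minus chimpanzee mean), beside 5.79, 14.3 and 3.91 over all kept cells. Without thinning, all 3 genes were found together in 53.9% and 47.2% of human 4 and 5 cells and 35.7% and 23.4% of chimpanzee 3 and 4 cells with such barcodes.

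A gene that made up the same share of every cell would be found in a set fraction of cells, and SCRT2 came closer to it in the human libraries. That fraction was 31.3% and 31.1% for SCRT2 in human 4 and 5, where 31.0% and 31.3% were seen. It was 30.3% and 29.4% in chimpanzee 3 and 4, where 28.1% and 26.4% were seen. At 60 UMIs per cell, SCRT2 was found in 50.6% and 51.4% of human 4 and 5 cells, with 52.5% and 52.3% for an even share. It was found in 46.7% and 43.2% of chimpanzee 3 and 4 cells, with 51.5% and 49.8% for an even share.

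The spread between cells showed the same from the other side. It was measured as the squared coefficient of variation beyond counting noise, which is 0 when cells differ only by counting and by depth. For SCRT2 it was 0.109 and 0.118 in human 4 and 5, and 0.755 and 1.47 in chimpanzee 3 and 4. The median of the 20 genes was 0.164 and 0.126 in human 4 and 5, and 0.131 and 0.154 in chimpanzee 3 and 4. So SCRT2 lay below the median in both human libraries, and several times above it in both chimpanzee libraries, while the median gene itself did not separate the species. The highest spread of any of the 20 genes did separate them, at 0.795 and 0.518 in human 4 and 5 and 1.91 and 2.71 in chimpanzee 3 and 4. In 6 of the 20 genes (30%) both chimpanzee libraries had more spread than both human libraries, SRXN1 and SCRT2 among them, in 4 (20%) both had less, and in 10 they overlapped. Among the 20 genes SCRT2 ranked 14 and 12 by spread in human 4 and 5, and 3 and 2 in chimpanzee 3 and 4.

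SRXN1 was also more uneven in chimpanzee cells, with a spread of 0.203 and 0.224 in human 4 and 5 and 0.456 and 0.607 in chimpanzee 3 and 4. NRSN2 went the other way, with 0.121 and 0.107 in human 4 and 5 and 0.0724 and 0.0870 in chimpanzee 3 and 4. DAZL, whose mean count per cell was lower than that of SRXN1 in every library, had 0.226 and 0.224 in human 4 and 5 and 0.182 and 0.119 in chimpanzee 3 and 4. With 2 libraries against 2, an exact permutation test (two-sided, 6 splits) cannot give a p below 0.333, so no test of these differences was made.

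A few cells carried part of this spread, but not all of it. Leaving out the 10 cells with most SCRT2 UMIs in each library gave 0.0792 and 0.0828 in human 4 and 5, and 0.498 and 0.537 in chimpanzee 3 and 4. For SRXN1 the same step gave 0.151 and 0.161 in human 4 and 5, and 0.268 and 0.363 in chimpanzee 3 and 4. Over cell barcodes found in no other table, SCRT2 had a spread of 0.120 and 0.147 in human 4 and 5, and 0.871 and 0.862 in chimpanzee 3 and 4. SRXN1 had 0.206 and 0.263 in human 4 and 5 and 0.501 and 0.599 in chimpanzee 3 and 4, and NRSN2 had 0.121 and 0.116 in human 4 and 5 and 0.0735 and 0.0984 in chimpanzee 3 and 4. In each of these settings the species did not overlap. For NRSN2 they did overlap in cells with 1 assigned guide barcode. NRSN2 had 0.101 and 0.145 there in human 4 and 5, and 0.152 and 0.112 in chimpanzee 3 and 4. For SRXN1 and SCRT2 the species did not overlap in those cells.

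**Figure D3:**
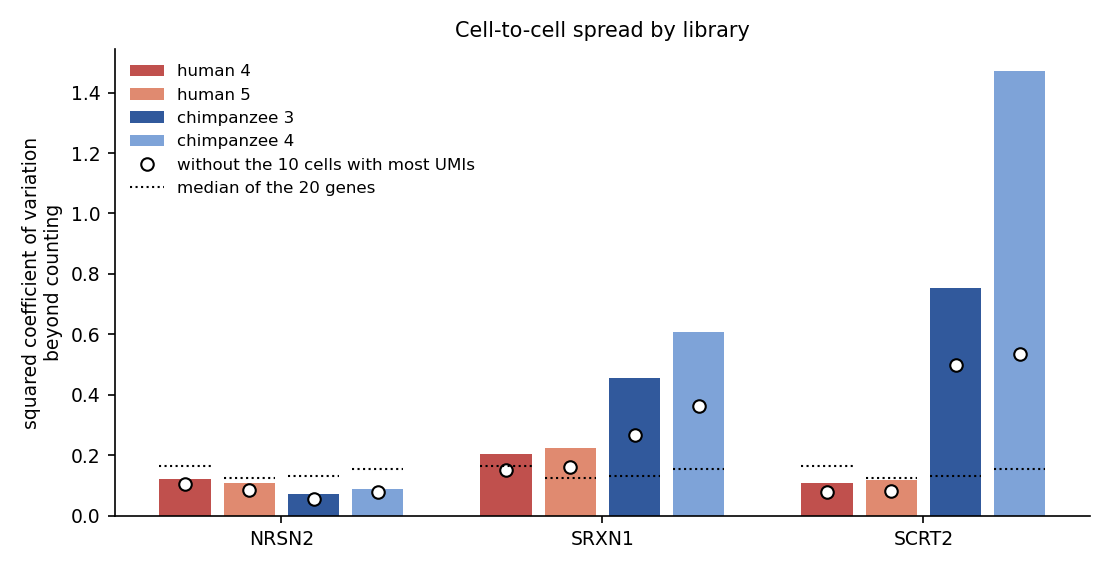
Squared coefficient of variation beyond counting (y axis, no unit) of each gene in the 4 libraries, over cells with at least 30 UMIs outside GAPDH. Open circles leave out the 10 cells with most UMIs of the gene, and dotted lines give the median of the 20 genes: for SCRT2 the circles stand below the line in human 4 and 5, and far above it, at 0.498 and 0.537, in chimpanzee 3 and 4.

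Among cells of like depth, with 90 to 149 UMIs outside GAPDH, the chimpanzee libraries had more cells without SCRT2. They also had the few cells with at least 10 SCRT2 UMIs. No SCRT2 UMI was seen in 27.8% of 661 cells of human 4 and 27.4% of 1549 cells of human 5, and in 33.1% of 2480 cells of chimpanzee 3 and 40.2% of 1683 cells of chimpanzee 4. At least 10 SCRT2 UMIs were seen in 0 cells of human 4 and 0 of human 5. In chimpanzee 3 there were 14 such cells and in chimpanzee 4 there were 9. At least 5 SCRT2 UMIs were seen in similar shares of cells in all 4 libraries. They were 3.33% and 3.10% in human 4 and 5, and 3.47% and 3.39% in chimpanzee 3 and 4. With only barcodes found in no other table, 27.9% and 27.4% of human 4 and 5 cells and 35.4% and 42.1% of chimpanzee 3 and 4 cells had no SCRT2 UMI, and 0 and 0 human 4 and 5 cells and 14 and 7 chimpanzee 3 and 4 cells had at least 10. For SRXN1, 27.8% and 26.5% of human 4 and 5 cells had none, and 53.1% and 55.1% of chimpanzee 3 and 4 cells. At its upper end 0 and 0 cells of human 4 and 5 and 1 and 1 cells of chimpanzee 3 and 4 had 10 SRXN1 UMIs or more.

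Over all cells with at least 30 UMIs, the top 1% of cells held 4.82% and 5.54% of SCRT2 UMIs in human 4 and 5, and 10.1% and 11.1% in chimpanzee 3 and 4. SCRT2 made up 10% or more of a cell's UMIs in 0 and 1 cells of human 4 and 5, and in 18 and 21 cells of chimpanzee 3 and 4. The richest single cell had 10 and 14 SCRT2 UMIs in human 4 and 5, and 41 and 84 in chimpanzee 3 and 4. The cell with 84 had a barcode that also stood in another table and no assigned guide, and the cell with 41 had neither an assigned guide nor a shared barcode. When barcodes found in another table were left out, the top 1% of cells held 4.33% and 5.09% of SCRT2 UMIs in human 4 and 5 and 10.2% and 9.69% in chimpanzee 3 and 4. The richest cell then had 10 and 14 SCRT2 UMIs in human 4 and 5 and 41 and 18 in chimpanzee 3 and 4. For SRXN1 the top 1% of all cells held 5.87% and 6.28% in human 4 and 5 and 9.21% and 10.3% in chimpanzee 3 and 4.

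**Figure D4:**
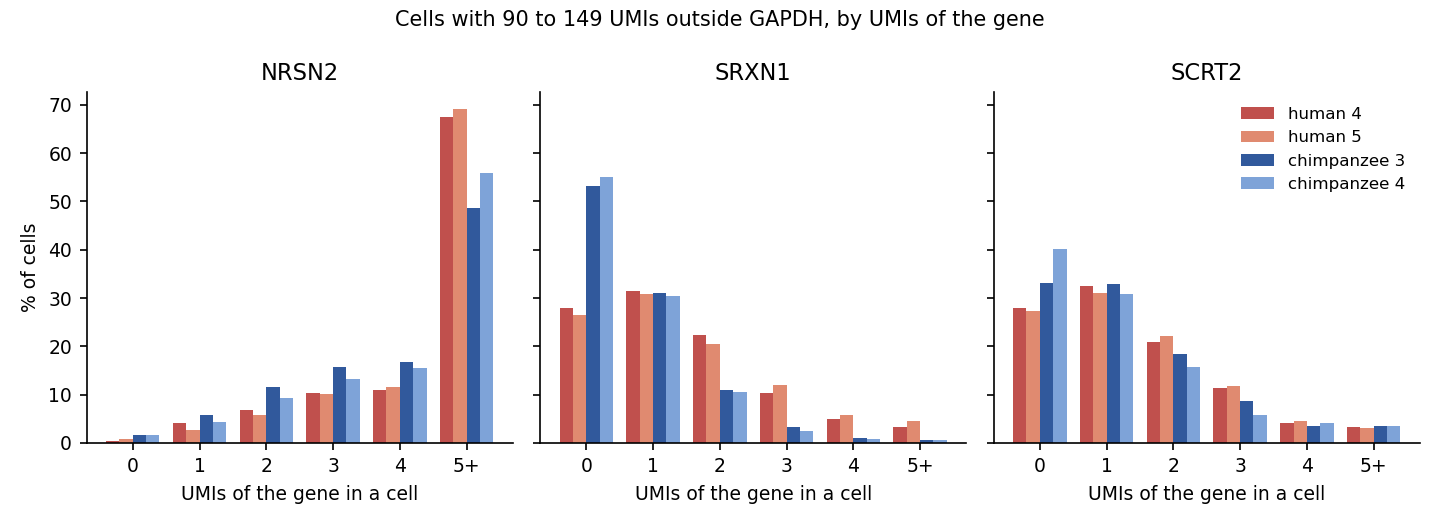
Percent of cells (y axis) by the number of UMIs of each gene in the cell (x axis), for cells with 90 to 149 UMIs outside GAPDH. For SCRT2 the bars at 0 stand at 27.8% and 27.4% in human 4 and 5 and are taller, at 33.1% and 40.2%, in chimpanzee 3 and 4, although the mean share is nearly equal.

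Which other genes moved with the 3 genes from cell to cell was described by the correlation of residuals, that is of counts after allowing for the cell's total. These correlations share a library, a depth and a total that all genes divide, and most were weak: for SRXN1 with the other 19 genes they lay between -0.222 and 0.160 over the 4 libraries. The partners named are the 2 highest and the 1 lowest by the median over the libraries.

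By that median SCRT2 was placed with AKAP6, which encodes an anchoring protein for protein kinase A, and the species differed. The correlation was 0.0435 and 0.0461 in human 4 and 5, and 0.225 and 0.222 in chimpanzee 3 and 4. Cells with at least 60 UMIs outside GAPDH were then split within each library into 3 groups of equal size by the partner's share. In the third with the highest AKAP6 share, SCRT2 made up 1.74% and 1.75% of the UMIs other than AKAP6 and GAPDH in human 4 and 5, and 1.85% and 1.80% in chimpanzee 3 and 4. In the third with the lowest AKAP6 share it made up 1.25% and 1.29% in human 4 and 5, and 0.891% and 0.839% in chimpanzee 3 and 4. By this measure, with AKAP6 left out of the total, the libraries lay close together among AKAP6-rich cells and apart among AKAP6-poor cells. In the AKAP6-poor cells the chimpanzee libraries had less SCRT2. Without shared barcodes the correlation was 0.0555 and 0.0707 in human 4 and 5 and 0.243 and 0.247 in chimpanzee 3 and 4. Among the AKAP6-poor of these cells, SCRT2 made up 1.24% and 1.24% in human 4 and 5 and 0.839% and 0.754% in chimpanzee 3 and 4. AKAP6 itself was higher in the human libraries. It made up 18.1% and 18.1% of UMIs outside GAPDH in human 4 and 5 and 7.66% and 7.54% in chimpanzee 3 and 4. Over whole libraries, leaving AKAP6 out of the total therefore raises SCRT2 shares more in human than in chimpanzee libraries. The groups were also cut within each library, so AKAP6-rich human and chimpanzee cells need not have had like AKAP6 shares. Whether AKAP6-rich cells lay close together in SCRT2 as a share of all UMIs outside GAPDH was not tested.

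With ONECUT2, a homeodomain transcription factor of the nervous system, the correlation of SCRT2 was higher than with AKAP6 in both human libraries and lower in both chimpanzee libraries, at 0.122 and 0.146 in human 4 and 5 and 0.132 and 0.134 in chimpanzee 3 and 4. By the median SCRT2 was lowest with NPAS3, a neuronal transcription factor of the bHLH-PAS family. That correlation was -0.159 and -0.160 in human 4 and 5 and -0.176 and -0.164 in chimpanzee 3 and 4. In chimpanzee 4 another gene was lower, at -0.193. The correlations with ONECUT2 and NPAS3 were of like size in the 2 species, unlike the correlation with AKAP6.

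NRSN2 went most with ONECUT2, at 0.264 and 0.188 in human 4 and 5 and 0.137 and 0.180 in chimpanzee 3 and 4. By Spearman correlation of shares it was 0.268 and 0.163 in human 4 and 5 and 0.0490 and 0.0642 in chimpanzee 3 and 4, so the chimpanzee values depended on the measure. Over barcodes found in no other table the first measure gave 0.281 and 0.229 in human 4 and 5 and 0.149 and 0.166 in chimpanzee 3 and 4. In the third of cells with the highest ONECUT2 share, NRSN2 made up 7.46% and 6.88% of the remaining UMIs in human 4 and 5, and 4.70% and 5.37% in chimpanzee 3 and 4. In the third with the lowest it made up 4.54% and 4.71% in human 4 and 5, and 4.15% and 4.65% in chimpanzee 3 and 4. The human libraries thus lay above the chimpanzee libraries in ONECUT2-rich cells, and in ONECUT2-poor cells the species overlapped. ONECUT2 was itself higher in human cells, by a log2 ratio of 1.32 ± 0.13 (adjusted p = 0.00128, edgeR).

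NRSN2 also went weakly with AKAP6, at 0.121 and 0.0808 in human 4 and 5 and 0.0764 and 0.135 in chimpanzee 3 and 4. By the median its lowest partner was BAZ1A, a subunit of chromatin remodelling complexes. The correlation was -0.363 and -0.334 in human 4 and 5 and -0.0916 and -0.146 in chimpanzee 3 and 4. In chimpanzee 3 and 4 BAZ1A was not the lowest, since the lowest correlations there were -0.187 and -0.167. In the third of human cells with most BAZ1A, NRSN2 made up 4.71% and 4.77% in human 4 and 5, against 6.96% and 6.72% in the third with least. In chimpanzee 3 and 4 it made up 4.63% and 5.08% in the third with most, against 4.76% and 5.53% in the third with least.

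SRXN1 went most, by the median, with ONECUT2 (0.160 and 0.107 in human 4 and 5, 0.0663 and 0.120 in chimpanzee 3 and 4) and with its neighbour SCRT2. In chimpanzee 3 SCRT2 was above ONECUT2, and in chimpanzee 4 another gene was above both, at 0.123. The correlation of SRXN1 with SCRT2 was 0.104 and 0.0491 in human 4 and 5, and 0.0991 and 0.122 in chimpanzee 3 and 4. By Spearman correlation it was 0.106 and 0.0373 in human 4 and 5 and 0.0296 and 0.0584 in chimpanzee 3 and 4. A weak correlation of sparse counts is no sign of shared control, and reads of the read-through transcript, if any, cannot be told apart here. By the median SRXN1 was lowest with NPAS3, between -0.144 and -0.134 over the 4 libraries. In human 4 and 5 NPAS3 was not the lowest, since the lowest correlations there were -0.222 and -0.150. NRSN2 with SRXN1 gave 0.113 and 0.0895 in human 4 and 5 and 0.0469 and 0.0600 in chimpanzee 3 and 4, and NRSN2 with SCRT2 gave 0.0862 and 0.0215 in human 4 and 5 and 0.0263 and 0.0450 in chimpanzee 3 and 4.

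Guide barcodes were then compared. A cell was assigned to its leading barcode when that had at least 5 UMIs and 70% of the cell's guide UMIs, which held for 745 and 831 cells of human 4 and 5 and for 811 and 1003 of chimpanzee 3 and 4. Barcodes of at least 5 cells made up 26 classes in each human and 25 in each chimpanzee library, with 5 to 143 cells in a class. Each barcode was set against the mean of the other barcodes, with the library as a term. A map from barcode to target was not used here, so a barcode stands for a guide of unnamed target and no pair of region and gene is tested.

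Few pairs passed the test. Over both species, 1 of 500 pairs of gene and barcode was called (0.2%), and it was 1 of the 75 pairs of NRSN2, SRXN1 and SCRT2. In the human fit 12 of 500 pairs were called (2.4%), none of them of the 3 genes, of whose 75 pairs 9 had an unadjusted p under 0.05, beside 70 of all 500. The lowest adjusted p among those 75 was 0.0638 by edgeR, and DESeq2 called none of them either. With TMM factors 1 was called, NRSN2 with Brainbar3, at -0.63 (adjusted p = 0.0456). In the chimpanzee fit 1 of 456 pairs was called (0.219%), 1 of the 72 of these genes. In the fit of the difference between species 5 of 460 were called (1.09%), 1 of them among 69 of these genes.

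The pair called over both species was NRSN2 with SplintRbar1, at 0.47 ± 0.11 (log2, SE; adjusted p = 0.0493, edgeR). In the cells of SplintRbar1, NRSN2 made up 5.50% in human 4 (13 cells), 7.39% in human 5 (24 cells), 10.3% in chimpanzee 3 (5 cells) and 6.94% in chimpanzee 4 (27 cells). Cells of all other barcodes had 5.58% and 5.53% in human 4 and 5, and 4.71% and 5.24% in chimpanzee 3 and 4. A single cell of chimpanzee 3 held 49 of the 61 NRSN2 UMIs of its class (80.3%), and without it the class stood at 3.15%. Leaving out that 1 cell ended the call, at 0.20 with an adjusted p of 0.969. Taking the richest cell from this barcode alone can only lower its value. Over 13 alternatives the adjusted p ran from 0.0123 to 0.969. In the chimpanzee fit the same pair stood at 0.72 ± 0.16 (adjusted p = 0.0332, edgeR), and at 0.13 without that 1 cell (adjusted p = 0.992, in a range from 0.00815 to 1.00 over 9 alternatives).

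The pair whose effect differed between species was NRSN2 with Brainbar3, at -1.02 ± 0.25 for the human minus the chimpanzee log2 effect (adjusted p = 0.0132, edgeR). In the cells of Brainbar3, NRSN2 made up 4.25% and 2.50% in human 4 (10 cells) and human 5 (6 cells), and 5.07% and 9.59% in chimpanzee 3 (9 cells) and chimpanzee 4 (6 cells). Cells of other barcodes had 5.60% and 5.60% in human 4 and 5, and 4.75% and 5.28% in chimpanzee 3 and 4. Both human classes were thus below and both chimpanzee classes above the other cells of their library, on 13 to 65 NRSN2 UMIs per class. Without human 5 the difference was -0.79 (adjusted p = 0.508), and without chimpanzee 4 it was -0.68 (adjusted p = 0.271), over 11 alternatives from 0.00660 to 0.508. The call was also lost with TMM factors (adjusted p = 0.0670), with the newer edgeR default (0.211) and with looser assignment (0.0601). Over barcodes found in no other table the difference was -1.11. The human effect alone was -0.58 ± 0.18 (adjusted p = 0.0638, edgeR, and 0.0456 to 0.159 over 7 alternatives).

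Brainbar1 had the lowest human value of both SRXN1 and SCRT2 among 25 barcodes, and was singled out after the values were seen. SRXN1 made up 0.699% and 0.554% of its UMIs in human 4 and 5 (15 cells each, 12 and 8 UMIs), and 1.26% in chimpanzee 4 (6 cells, 13 UMIs). SCRT2 made up 0.815% and 0.416% in human 4 and 5 (14 and 6 UMIs), and 2.13% in chimpanzee 4 (22 UMIs). The human effects were -0.995 ± 0.336 for SRXN1 (adjusted p = 0.0933, edgeR) and -0.87 ± 0.34 for SCRT2 (adjusted p = 0.151). NRSN2 stood at -0.46 ± 0.14 in the same fit (adjusted p = 0.0726, edgeR), and none of the 3 passed the test. With fewer than 5 assigned cells of Brainbar1 in chimpanzee 3, the difference between species was not fitted for it. Without chimpanzee 3, the 6 cells of chimpanzee 4 alone stand for their species, and chimpanzee 4 is assumed to vary like the other libraries. The difference between species was then -2.04 for SCRT2.

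The smallest p of SRXN1 and of SCRT2 over both species was with SplintRbar30, at 0.54 ± 0.22 for SRXN1 (adjusted p = 0.827, edgeR) and 0.43 ± 0.21 for SCRT2 (adjusted p = 0.907). For SCRT2 the 78 UMIs of 31 cells in chimpanzee 3 (2.05%) stood beside 39 UMIs of 29 cells in chimpanzee 4 (0.917%), so the 2 chimpanzee libraries did not repeat each other. For the difference between species the smallest p was with Brainbar8 for SRXN1, at -0.55 ± 0.44, and with SplintRbar20 for SCRT2, at 0.60 ± 0.44, both with an adjusted p of 0.889 by edgeR. In the human fit the SE of a single barcode's effect ran from 0.17 to 0.34 for SRXN1 and from 0.17 to 0.36 for SCRT2, beside 0.10 to 0.18 for NRSN2.

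**Figure D5:**
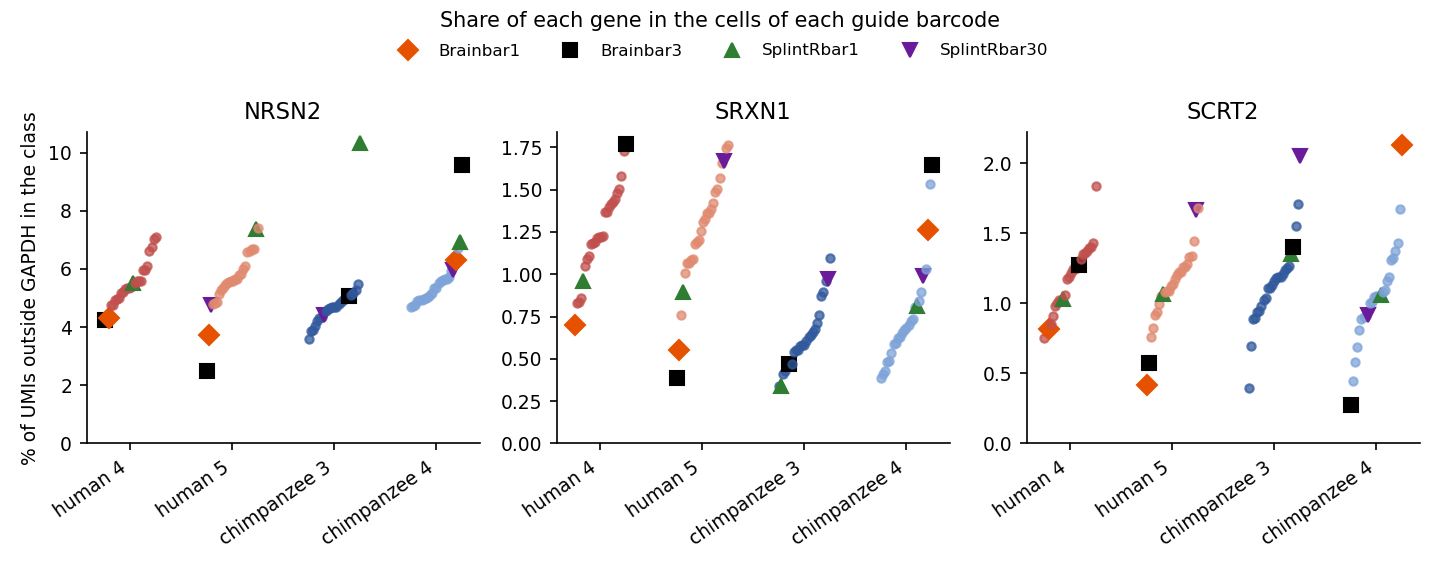
Share of UMIs outside GAPDH (y axis, percent) taken by each gene in the assigned cells of each guide barcode (1 point per barcode with at least 5 cells), in the 4 libraries (x axis), sorted by value within a library. Named barcodes have their own marks: for NRSN2, SplintRbar1 stands at 10.3% in chimpanzee 3, and Brainbar3 at 2.50% in human 5 and 9.59% in chimpanzee 4.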

How the data were processed

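Per the file headers, the authors deposited UMI counts, cells in rows and probed genes and guide barcodes in columns. Bowtie, SAMtools, UMI-tools, fastp and hg38 are named by the submitters' processing notes. Their roles and the filter on cells: not given in the sources used here. Only the 4 tables with the 3 genes entered the tests. The other 7 served to find shared cell barcodes. Cells with GAPDH above 80% of gene UMIs were left out. UMIs were summed per gene and library, or per guide barcode and library, over 20 genes outside GAPDH, whose sum was the library size. Genes needed 10 UMIs in every library (for guides, in at least 50% of classes). The test was edgeR 4.0.16 quasi-likelihood (common dispersion, legacy method) in R 4.3.3, with Benjamini-Hochberg adjustment over all genes or pairs. It shares the spread between genes. DESeq2 1.42.0 and TMM factors were alternatives. Scripts were tested on simulated counts. Where no change was simulated, the species fit called 8.25% of 800 genes and the guide fit over both species 0.935% of 4705 pairs. Unchanged genes were thus among the calls. Where a log2 change of 0.5 was simulated, the fits called 96% of 50 genes and 75% of 48 pairs. For a change of -0.5 they called 94% of 50 genes and 67.3% of 49 pairs. Fewer genes changed in the simulated species fits than were called in the data, with as many up as down. No doublet caller was run, and cells with no clear leading barcode stayed in the species comparison. Named genes and pairs were the 3 genes, for each the 2 highest and 1 lowest correlated partners, DAZL, pairs past the threshold or with the smallest p, and 2 NRSN2 pairs known before. The members, lists and rules were chosen with earlier results of these data known.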

Additional observations from a re-analysis of the deposited data

Results flagged for a closer look

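NRSN2 in cells of Brainbar3 passed the test of a difference in effect between human and chimpanzee libraries, at -1.02 on the log2 scale (human minus chimpanzee). The call was lost in 5 of 11 alternatives: TMM factors, the newer edgeR default, looser assignment, and without human 5 or chimpanzee 4. It rests on classes of 10 and 6 cells in human 4 and 5 and 9 and 6 cells in chimpanzee 3 and 4. Brainbar3 was not fitted with classes of 15 cells or with stricter assignment (10 UMIs and 90%), so these are not among the 11.

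The cells of human 4 in which GAPDH made up more than 80% of gene UMIs took part in no main comparison. They entered only the alternatives in which no cells were left out, yet they held UMIs of all 3 genes. Over 1712 such cells, with a median of 27 UMIs outside GAPDH, NRSN2 made up 5.20% of these UMIs (2643 UMIs), SRXN1 1.25% (635 UMIs) and SCRT2 1.35% (687 UMIs). The kept cells of the same library had 5.61%, 1.24% and 1.25%. Of the 1712 left-out cells 888 had a cell barcode also found in another table, beside 298 of the 2113 kept cells. DAZL made up 0.572% in the left-out cells and 0.508% in the kept cells. The remaining libraries had 9 such cells or fewer.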

How the results depend on the processing

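No paired analysis was possible because all 4 libraries come from screen replicate 2, and their numbers were given in accession order. The SRXN1 species ratio kept its direction and its call under every alternative run (0.67 to 1.28), and from 0.99 to 1.05 when 1 library was left out. NRSN2 lost its call with TMM factors (-0.0685), with DESeq2 (0.0329) and without chimpanzee 3, the range without 1 library being 0.20 to 0.37. SCRT2 turned to -0.28 with TMM factors, -0.18 with DESeq2 and -0.00153 with assigned cells only, and gave 0.05 to 0.10 without 1 library. The causes were not tested. Between 14 and 18 genes were called under all alternatives. Alternatives restricted to barcodes in no other table, or without single cells or libraries in the difference between species, were chosen after seeing the data.

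Over both species, the 1 pair called fell to 0 with classes of 15 cells, with stricter (10 UMIs and 90%) or looser (2 UMIs and 50%) assignment, over barcodes in no other table, with the newer edgeR default, and without 1 SplintRbar1 cell in chimpanzee 3 or in each library. By edgeR 10 to 38 pairs then had an unadjusted p under 0.05. It was 0 without human 5, chimpanzee 3 or chimpanzee 4, 1 without human 4, and 1 with DESeq2. The chimpanzee count was 0 under the same 7 settings (2 to 23 pairs at an unadjusted p under 0.05) and was 2 with TMM factors and 1 with DESeq2. The human count of 12 was 5 with classes of 15 cells and 3 with stricter assignment. The 5 pairs of the difference between species became 2 with classes of 15 cells, 0 with stricter assignment (4 at an unadjusted p under 0.05), 2 with the newer default, 2 and 3 without human 4 and 5, and 19 and 8 without chimpanzee 3 and 4. DESeq2 gave 6. Of 110 alternatives of the 12 named pairs, 89 kept direction and side, 17 lost the call, 1 gained it and 3 reversed. Settings in which a pair was not fitted are not counted. The gain was NRSN2 with Brainbar3 in the human fit, with TMM factors. The reversals were NRSN2 with SplintRbar1 over both species (-0.0481 without its richest cell per library, a step that can only lower this barcode) and SRXN1 with Brainbar8 (0.31 with looser assignment, and from -1.02 to 0.69 without 1 library).

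At 60 UMIs per cell the human minus chimpanzee difference in cells with a UMI was 2.93 percentage points for NRSN2, 21.2 for SRXN1 and 6.02 for SCRT2. It was 5.79, 14.3 and 3.91 at 30. Without the 10 richest cells the difference in spread was -0.16 for SRXN1 and -0.44 for SCRT2, beside -0.318 and -0.999. The correlation of NRSN2 with ONECUT2 had a median of 0.11 by Spearman, beside 0.18, with the larger drop in the chimpanzee libraries. That of SRXN1 with ONECUT2 was 0.16 in assigned cells, beside 0.11.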
